A study of Danio rerio with 4 samples.

Results

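The cells described here were chosen by the RNA counts of 5 genes, agr2, itln1, muc2.1, viml and c3a.4, in the kidney of zebrafish 4 days after an injection of gentamicin. A cell was taken when at least 3 of the 5 genes had a unique molecular identifier (UMI, 1 counted RNA molecule) and agr2 had at least 2. Of 31008 cells in 4 libraries, 759 met this rule, and they are called gated cells below. All fish were of the AB genotype and received 20 μl of gentamicin at 2.7 μg/μl into the body cavity, an antibiotic that injures the kidney tubule. The study selected injured fish by protein in the urine a day after injection and dissociated their kidneys with trypsin at 4 dpi. All 4 libraries are of this condition, so the comparisons are between cells of the same injured kidneys and none shows an effect of the injury. The sources used here do not state which fish went into which library, so the libraries may be technical replicates of the same pool of cells. The gated cells are labelled mucin-secreting agr2 itln1 cells, but secretion itself was not measured.

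The agr2 gene encodes a member of the protein disulfide isomerase family that resides in the endoplasmic reticulum (ER), where proteins bound for export are folded and their disulfide bonds formed. In mouse intestine it is needed for the production of the gel-forming mucin MUC2. Intelectins such as itln1 are secreted lectins that bind sugars on microbial surfaces, muc2.1 is a gel-forming mucin, c3a.4 is a copy of complement component C3, and viml is named for its likeness to vimentin, a filament protein. A cell that exports much protein carries large amounts of the chaperones, translocation channels and vesicle coats through which these proteins pass. The zebrafish kidney is also the site of adult blood formation, so that a suspension of it holds blood precursors and white blood cells beside tubule cells.

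The libraries held between 59350367 and 87759842 UMIs. Libraries 1 and 2 listed none of the 13 genes for mitochondrial proteins and libraries 3 and 4 listed all 13, and whether the pairs were counted alike is not given in the sources used here. Many values are given for each library, and others are means over libraries or are pooled. Between 1 and 108 cell barcodes were shared by any pair of libraries, none of them of a gated cell in both. Levels are the summed UMIs of a group of cells in a library, per 1000000 UMIs of that group (CPM).

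Gated cells made up 3.01% of cells in library 1 (272 cells, exact Clopper-Pearson 95% interval 2.66% to 3.38%), 3.19% in library 2 (314 cells, 2.86% to 3.56%), 1.36% in library 3 (86 cells, 1.09% to 1.68%) and 1.49% in library 4 (87 cells, 1.20% to 1.84%). The mean over libraries was 2.26% ± 0.969 (SD, n = 4), and the shares of libraries 1 and 2 lay above those of libraries 3 and 4. After thinning each cell to 2000 UMIs before gating, these shares were 3.0%, 3.1%, 0.55% and 0.62%. The intervals cover counting error only. The median gated cell had 7943 UMIs, against 6213 for all other cells, and gated cells held 5.25%, 6.20%, 1.31% and 1.61% of the UMIs of libraries 1 to 4.

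The gate genes chose the cells, so their levels are given as a description and without a test. In gated cells agr2 stood at 4465, 4607, 1367 and 1309 CPM in libraries 1 to 4, itln1 at 1864, 2009, 2912 and 2635 CPM, and c3a.4 at 2137, 2373, 2249 and 2134 CPM. Levels of viml were 769, 725, 765 and 686 CPM, and those of muc2.1 were 56.1, 65.5, 137 and 101 CPM. The agr2 level of libraries 1 and 2 was thus above that of libraries 3 and 4, while itln1 and muc2.1 stood the other way and c3a.4 and viml were nearly level. In all other cells the means over libraries were 12.1 CPM for agr2, 21.3 for itln1, 12.7 for c3a.4, 9.4 for viml and 1.1 for muc2.1. Of the gated cells, 342 had all 5 genes, 384 had 4 and 33 had 3. Just inside the agr2 threshold lay 94 cells with exactly 2 agr2 UMIs, and just outside it lay the 356 cells with at least 3 of the other 4 genes and 0 or 1 agr2 UMI that are described below as agr2-low cells.

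**Figure D1:**
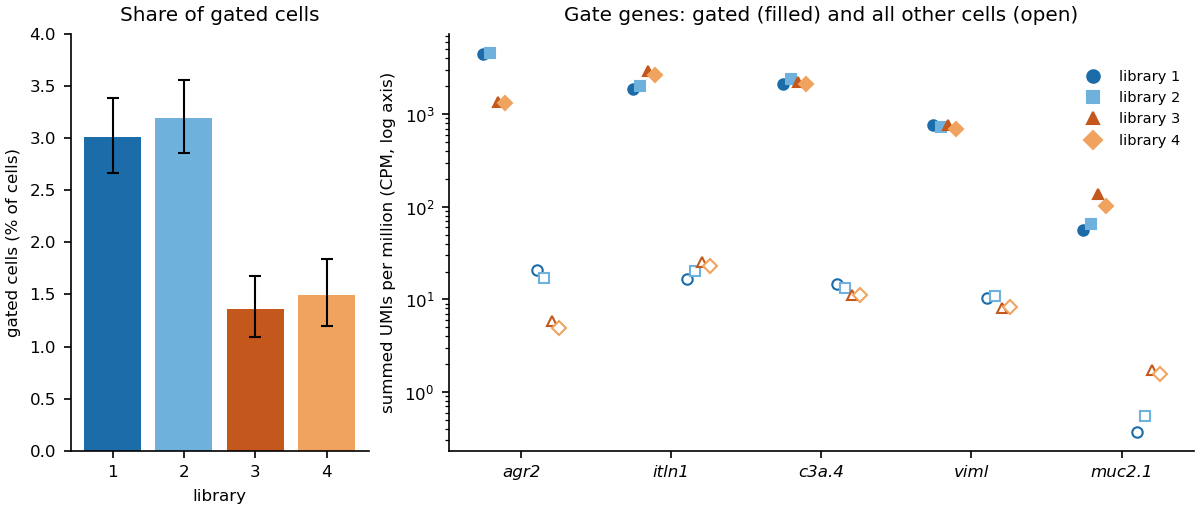
Left, gated cells as a percentage of all cells in each library, with exact 95% intervals. Right, CPM (log axis) of the 5 gate genes in each library, in gated cells (filled) and in all other cells (open). In libraries 1 and 2 agr2 reached 4465 and 4607 CPM in gated cells, against 1367 and 1309 CPM in libraries 3 and 4.

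Each gate gene was then read in cells chosen without it, by at least 3 of the other 4 genes and, for every gene but agr2, the same agr2 minimum. Among 734 cells chosen without itln1, 98.9% had an itln1 UMI, against 5.08% of other cells. The same share was 97.6% of 741 cells for viml and 98.2% of 737 cells for c3a.4, against 3.06% and 3.02% of other cells. For agr2 it was 81.3% of 1082 cells, with 88.9%, 86.1%, 70.06% and 67.4% in libraries 1 to 4, against 4.89% of other cells. For muc2.1 it was 45.8% of 758 cells, against 0.638% of other cells, and it was lower in libraries 1 and 2 (38.2% and 42.0%) than in libraries 3 and 4 (69.4% and 59.8%). The genes itln1, viml and c3a.4 were thus found in nearly all of these cells, whereas fewer than all had agr2 and muc2.1 was detected in a minority in libraries 1 and 2. At an equal depth of 2000 UMIs, a muc2.1 UMI was found in 15.9% of gated cells and 0.290% of all other cells.

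The label was checked against markers of mucus-secreting epithelium. Besides muc2.1, the mucin genes were close to absent: muc5e averaged 2.9 CPM in gated cells and 5.8 CPM in all other cells, and muc13b averaged 2.0 CPM in gated cells and 19.4 CPM in all other cells. The lectins itln2 and itln3 and the transcription factors spdef, atoh1b, foxa1 and foxa2, of which spdef, foxa1 and foxa2 act in goblet cell differentiation in mammals, had no UMI in any of the 759 gated cells, which allows a share of cells with a UMI of up to 0.395%. The adhesion molecules of epithelia were low as well. Gated cells held 11.3 CPM of epcam, against 55.4 CPM in all other cells and 1349 CPM in the agr2-positive cells outside the gate, and 14.9% of them had a UMI of the keratin krt8, against 39.0% of all other cells. In contrast, genes of white blood cells were present. A UMI of ptprc, the CD45 phosphatase of leukocytes, was found in 91.3% of gated cells and 69.6% of all other cells, and coro1a, an actin regulator of leukocytes, in 97.6% of gated cells and 62.9% of all other cells. At 2000 UMIs per cell ptprc was found in 60.2% of gated cells and 62.7% of all other cells, at 483 CPM and 905 CPM. Its share was higher in 79.2% of neutrophil-like, 74.8% of macrophage-like, 84.1% of B cell-like and 98.2% of T and NK cell-like cells. It was 60.4% of thrombocyte-like, 6.07% of distal tubule-like and 5.31% of erythroid-like cells. The 18 listed pan-leukocyte genes summed to between 9547 and 10238 CPM in gated cells, and to between 8885 and 11617 CPM in all other cells. The 20 listed epithelial genes summed to between 55.8 and 226 CPM in gated cells, and to between 620 and 953 CPM in all other cells. Some secretory genes went the other way. In the test described below, 5.71% of all genes tested were higher in gated cells than in all other cells and 11.1% lower. Of 8 tested transcription factors of goblet and gut secretory cells, 2 were higher and 2 lower. Of 5 tested mucus genes, 2 were higher and 1, agr1, was lower. The agr1 call was kept in 9 alternative settings and lost in 8. The higher ones were creb3l1 (75.7 CPM against 1.3 CPM), gfi1ab (71.2 CPM against 5.8 CPM), clca5.2 (390 CPM against 3.5 CPM) and clca1 (9.9 CPM against 0.32 CPM). The epithelial list was thus lower in gated cells than in all other cells but not at 0. The mucins named besides muc2.1 were close to absent, and the pan-leukocyte list lay within its range in all other cells. Mucus secretion was not measured, and the cells are called by their gate genes here.

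Cells were also scored for 10 other classes, each by UMIs in at least 3 of its markers. By this measure 578 gated cells (76.2%) passed none, 150 (19.8%) passed the neutrophil-like class, 25 the erythroid-like class and 8 the macrophage-like class, and no other class was passed by more than 4. Neutrophils are the most abundant granulocytes of this organ. The neutrophil genes lyz, npsn, mpx and lect2l summed with 5 others to between 1688 and 4419 CPM in gated cells, against between 88085 and 114994 CPM in neutrophil-like cells. The part of cells captured together and of free RNA in these values was not tested. Each comparison below was also run with only the gated cells that passed no class. In that run agr2-low cells and agr2-positive cells outside the gate passed no class either. Cells passing several classes were left out of all other cells, and neutrophil-like cells, which pass no further class by definition, were unchanged.

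**Figure D2:**
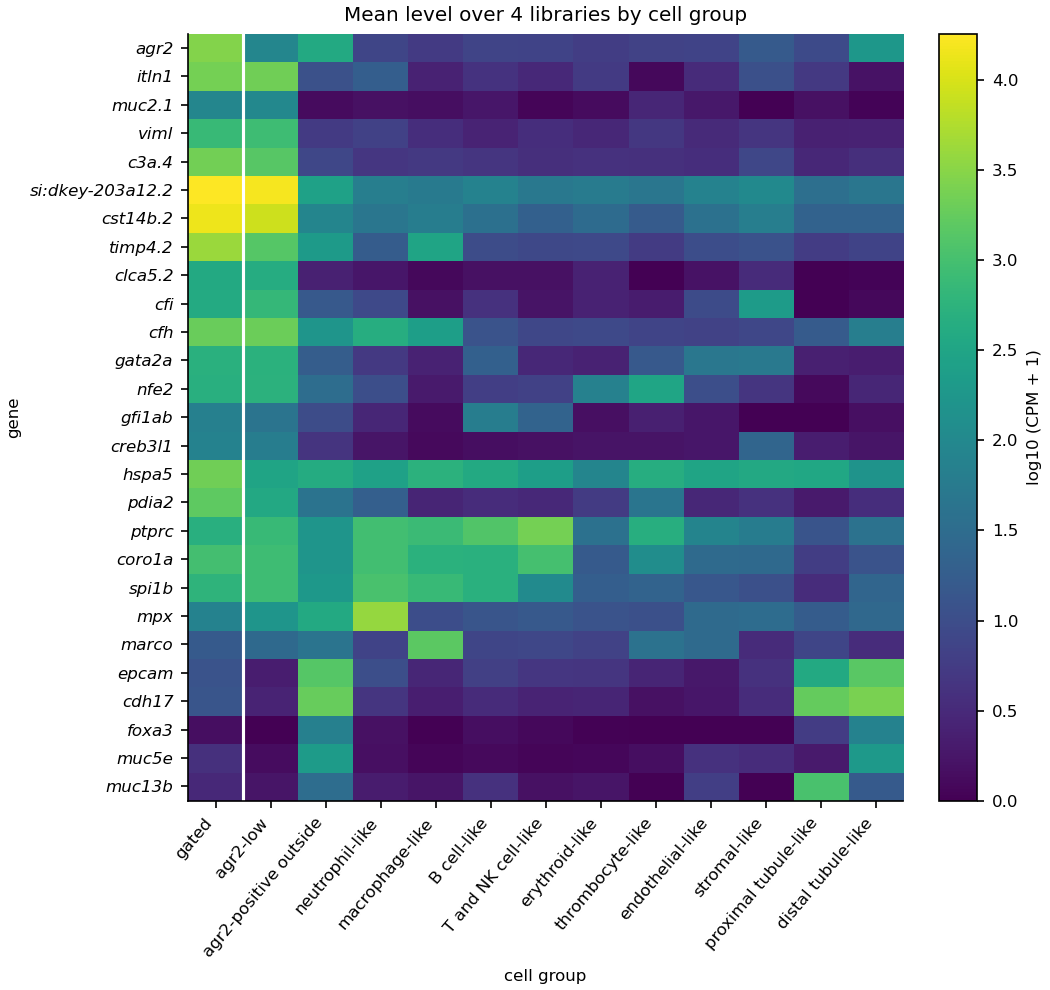
Mean level over the 4 libraries, as log10 (CPM + 1), of 27 genes (rows) in 13 groups of cells (columns), with gated cells in the first column and agr2-low cells in the second. Gated and agr2-low cells share high levels of the inhibitor genes. They also share those of itln1, viml and c3a.4, by which the rule chose both groups. The genes epcam and cdh17 are high in agr2-positive cells outside the gate and in the tubule-like classes.

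The gated cells were set against all 30249 other cells by summing UMIs per library. A gene that goes along with the 5 gate genes had to be higher in this comparison, so it describes the gated cells, and an adjusted p-value says only that a difference repeated over the 4 libraries. Not counting the gate genes, 18977 genes were tested with edgeR's quasi-likelihood test. Of these, 3197 (16.8%) passed an adjusted p of 0.05, 1083 of them higher (5.71%) and 2114 lower (11.1%) in gated cells. With the library as a block 4920 genes passed, 1843 higher and 3077 lower. With sums scaled by their totals alone 533 were higher and 5706 lower. Gated cells spent a large part of their RNA on few genes, so the scaling matters: with sums scaled by their totals alone the median log2 fold change of all genes moved by -0.62, and 8.54% of calls were higher in gated cells, against 33.9% with TMM. In libraries 1 and 2 alone 7148 genes passed, and without library 1, 2 or 3 the count was 1405, 1528 or 2113.

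Gated cells held large amounts of RNA for protease inhibitors, among other genes. The clone-named si:ch211-14a17.10, picked for its level and outside the families named below, averaged 26664 CPM in gated cells and 205 CPM in all other cells. RefSeq (GRCz12tu) names 8 genes of the tables as copies of spink2, a Kazal-type serine protease inhibitor, and these neighbour each other on a chromosome. Their summed level was 99661, 100892, 103888 and 87950 CPM in gated cells, or 8.79% to 10.4% of all their UMIs, against 1032, 1069, 638 and 565 CPM in all other cells. The copy si:dkey-203a12.2 (spink2.7 in RefSeq) stood at 21187, 21288, 16136 and 13679 CPM in gated cells, against 222, 234, 108 and 84.5 CPM in all other cells. These copies may share reads, so the level of a single copy is uncertain. The sum leaves out si:dkey-203a12.6 and si:dkey-203a12.3, named for the same clone but not matched to a spink2 name. They averaged 13449 and 12917 CPM in gated cells, against 104 and 109 CPM in all other cells. Whether they are further copies was not tested. The family was singled out after its values were seen, and its levels are a description. Members of other inhibitor families passed the test. The cystatin cst14b.2, of a family that inhibits cysteine proteases, stood at 13046, 15277, 14339 and 13830 CPM in gated cells, against 121, 123, 66.4 and 74.2 CPM in all other cells (log2 fold change 7.80, SE 0.37, adjusted p = 1.6e-06). The metalloproteinase inhibitor timp4.2 stood at 5412, 5739, 2857 and 2736 CPM in gated cells, against 109, 110, 80.1 and 78.5 CPM in all other cells (log2 fold change 6.08, SE 0.39, adjusted p = 1.3e-05). For both genes the lowest gated library lay far above the highest library of other cells.

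Other secreted or surface products were also higher. The chemokine ccl34b.9 averaged 1441 CPM in gated cells and 11.7 CPM in all other cells, and clca5.2, of a family of secreted regulators of chloride channels, averaged 390 CPM in gated cells and 3.5 CPM in all other cells (log2 fold change 7.39, SE 0.30). In the list of mucins and mucus gel proteins, 5 members could be tested besides the gate genes, and clca5.2 and clca1 rose while agr1, a relative of agr2, fell. The agr1 level was low in both groups (0.20 CPM in gated cells and 2.1 CPM in all other cells), and the call was lost in 8 of 17 alternatives, among them leaving out library 1, 2 or 3. Among 20 tested enzymes that build O-glycans or GDP-fucose, 6 rose, including gcnt3, which branches O-glycans (136 CPM in gated cells against 9.2 CPM in all other cells), galnt12, which starts them (65.2 CPM against 10.9 CPM), and gmds, which makes GDP-fucose (171 CPM against 63.0 CPM), and 2 fell.

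Genes of the ER rose together. Of 53 tested genes for protein entry into the ER, folding and the unfolded protein response, 50 were higher in gated cells and none lower, with a median log2 fold change of 2.05, against -0.17 over all genes tested. Their summed level was 30274, 30354, 18408 and 17825 CPM in gated cells, against 7994, 8127, 6382 and 6176 CPM in all other cells. The disulfide isomerase pdia2 stood at 1892, 2108, 1286 and 1168 CPM in gated cells, against 15.4, 26.4, 9.8 and 9.9 CPM in all other cells (log2 fold change 7.31, SE 0.49, adjusted p = 1.8e-05). The transcription factor creb3l1, which sits in the ER membrane and drives secretory genes, stood at 85.1, 71.8, 70.4 and 75.4 CPM in gated cells, against 1.6, 1.3, 1.1 and 1.0 CPM in all other cells (log2 fold change 6.52, SE 0.23, adjusted p = 3.4e-07). The sulfhydryl oxidase qsox1 (92.7 CPM against 6.8 CPM) and the ribosome-binding protein rrbp1b (110 CPM against 9.3 CPM) were among the others. Without library 1 or 2, 44 and 45 members still passed.

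Of 32 tested genes for transport from ER to Golgi and for exocytosis, 26 rose and 1 fell. The small GTPase rab3ab, of a family that acts in regulated exocytosis, averaged 42.8 CPM in gated cells and 0.90 CPM in all other cells (log2 fold change 6.17, SE 0.31), and kdelr3, a receptor that returns escaped chaperones to the ER, averaged 88.3 CPM in gated cells and 3.1 CPM in all other cells (log2 fold change 5.46, SE 0.34). The coat subunit copz2 averaged 68.5 CPM in gated cells and 9.3 CPM in all other cells. In both lists the levels of libraries 1 and 2 exceeded those of libraries 3 and 4 in gated cells.

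**Figure D3:**
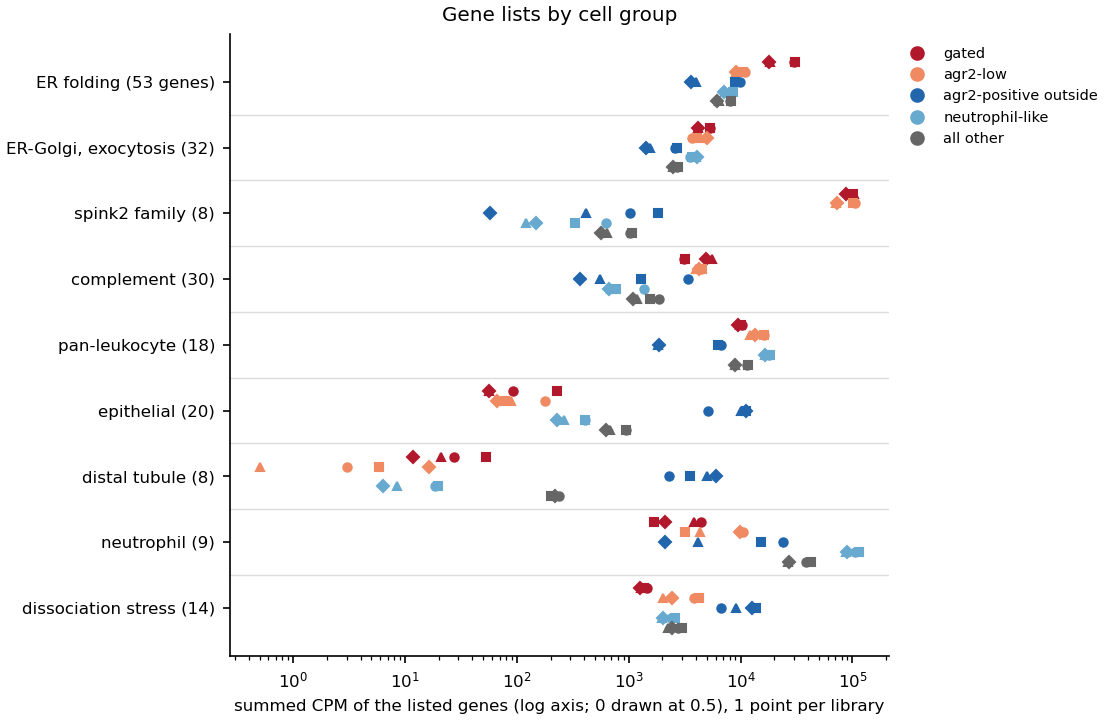
Summed CPM (log axis) of the genes of 9 lists in gated cells, agr2-low cells, agr2-positive cells outside the gate, neutrophil-like cells and all other cells, from top to bottom within a list. Each point is a library and a sum of 0 is drawn at 0.5. The ER list lies between 17825 and 30354 CPM in gated cells, against between 6176 and 8127 CPM in all other cells.

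Complement genes other than c3a.4 were split. Of 23 tested, cfd, cfh, cfi, cfp, cfhl1, cfhl2 and cd59 rose (7 genes) and c1qa, c1qb, c1qc, c4 and c6 fell (5 genes). With the library as a block 7 rose and 10 fell, against 1843 and 3077 of all 18977 genes tested. The protease cfi, which cleaves active C3, stood at 448, 436, 385 and 325 CPM in gated cells, against 16.9, 9.9, 5.5 and 4.3 CPM in all other cells (log2 fold change 6.04, SE 0.51). The surface inhibitor cd59 averaged 214 CPM in gated cells and 5.3 CPM in all other cells. The protease cfd, which starts the alternative pathway, stood at 234, 458, 1836 and 1489 CPM in gated cells, against 96.5, 95.6, 103 and 82.1 CPM in all other cells, so its level in libraries 3 and 4 was above that in libraries 1 and 2 (log2 fold change 4.02, SE 0.62, adjusted p = 0.0022). Of those that fell, c1qb, a subunit of the starter of the classical pathway, averaged 14.2 CPM in gated cells and 294 CPM in all other cells.

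Transcription factors of blood cells were among the genes with the largest differences. The zinc-finger factor gata2a, which acts in blood stem and progenitor cells, stood at 466, 418, 602 and 533 CPM in gated cells, against 8.3, 9.5, 7.3 and 7.4 CPM in all other cells (log2 fold change 6.57, SE 0.24, adjusted p = 3.4e-07). It had a UMI in 92.9% of gated cells and 3.15% of all other cells, and at 2000 UMIs per cell in 63.7% of gated cells and 1.70% of all other cells. The factor nfe2, known from red cell and platelet development in mammals, stood at 445, 483, 521 and 498 CPM in gated cells, against 28.9, 31.7, 32.2 and 32.1 CPM in all other cells (log2 fold change 4.58, SE 0.16). The repressor gfi1ab averaged 71.2 CPM in gated cells and 5.8 CPM in all other cells. The spread of gata2a and nfe2 between libraries was small beside these differences. Of 21 tested granulocyte and mast cell factors and receptors, gata2a, nfe2 and gfi1ab rose and 6 fell, among them the protease cpa5, a mast cell marker of zebrafish (57.7, 16.9, 32.1 and 23.6 CPM in gated cells, against 858, 825, 413 and 434 CPM in all other cells). With the library as a block 5 of this list rose and 10 fell, against 1843 and 3077 of all 18977 genes tested. Of 8 tested transcription factors of goblet and gut secretory cells, creb3l1 and gfi1ab rose and foxa1 and elf3 fell, the call of elf3 being lost in 4 of 17 alternatives. Of 18 pan-leukocyte genes, 6 rose and 1 fell, 10 rose with the block, and 3 rose and 2 fell when sums were scaled by their totals. The adaptor dok3 (134 CPM against 3.9 CPM), coro1a (958 CPM against 524 CPM) and the kinase btk (139 CPM against 80.4 CPM) rose, and spi1a, a relative of the myeloid factor spi1b, fell (16.2 CPM against 108 CPM).

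The list of anion and bicarbonate transport also holds the potassium channel kcnk5b and the sodium pump subunit atp1a3a, which both rose. Of its 9 tested genes, 5 rose and none fell. With the block 6 rose and 2 fell, and with sums scaled by their totals 4 rose and 2 fell. The potassium channel kcnk5b averaged 49.7 CPM in gated cells and 9.1 CPM in all other cells. The secreted carbonic anhydrase ca6 stood at 396, 337, 458 and 343 CPM in gated cells, against 174, 176, 111 and 111 CPM in all other cells (log2 fold change 2.03, SE 0.25, adjusted p = 6.5e-04). The chloride channel cftr had 2 UMIs in all gated cells together. Of 19 cytosolic ribosome genes 2 rose, against 5.71% of all genes tested, and none did when sums were scaled by their totals or when any 1 library was left out. With the block 17 rose, against 1843 of all 18977 genes tested.

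Many genes that mark other cells of the kidney were lower in gated cells, as were 11.1% of all genes tested. Of 9 neutrophil genes 7 fell, and the peroxidase mpx stood at 104, 38.6, 99.0 and 68.4 CPM in gated cells, against 1210, 1403, 1220 and 1246 CPM in all other cells (log2 fold change -3.42, SE 0.33). The metalloprotease npsn varied more, with 706, 229, 810 and 251 CPM in gated cells, against 8347, 8842, 6604 and 6830 CPM in all other cells. Of 11 macrophage genes 10 fell, among them the scavenger receptor marco (15.0 CPM against 331 CPM) and the receptor csf1ra (1.1 CPM against 21.4 CPM). The counts of members that fell were 7 of 8 for erythroid genes, 7 of 8 for distal tubule genes and 4 of 6 for B cell genes, where cd79a rose. They were 5 of 6 for thrombocyte genes, 5 of 7 for vascular endothelium and 4 of 6 for stroma. Fewer fell among T and NK cell genes (4 of 10) and proximal tubule genes (2 of 7). Of 19 epithelial genes 9 fell, and krt8 averaged 34.03 CPM in gated cells and 333 CPM in all other cells. The antigen receptor subunit cd79a averaged 86.7 CPM in gated cells and 39.7 CPM in all other cells (log2 fold change 1.75, SE 0.32, adjusted p = 0.0059 in edgeR). The epithelial count was 15 with the block, where 3077 of all 18977 genes tested fell. It was 2 without library 1, 3 without library 3 and 6 without the gated cells of the highest agr2 level. The distal tubule count was 4 without library 2, 3 or 4. The ligand cxcl12a of stromal cells had the lowest fold of the genes named by rule, with 4.8, 1.9, 0 and 0.79 CPM in gated cells, against 228, 216, 59.8 and 52.3 CPM in all other cells (log2 fold change -5.31, SE 0.80, adjusted p = 0.0020).

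Genes induced by tissue dissociation were also lower, with 9 of 14 fallen and 2 risen. The list summed to 1449, 1360, 1275 and 1267 CPM in gated cells, against 2780, 2999, 2233 and 2452 CPM in all other cells, and egr1 averaged 3.5 CPM in gated cells and 44.2 CPM in all other cells. None of 14 cell division genes passed in edgeR, and 6 were lower when sums were scaled by their totals, as were 5706 of all 18977 genes tested. The library pairs differed here, with 5 genes higher and 1 lower in libraries 1 and 2 alone and 9 lower in libraries 3 and 4 alone. Over all genes tested, 3381 of 19011 were higher and 3767 lower in libraries 1 and 2 alone. In libraries 3 and 4 alone 2266 of 21143 were lower. Summed over these 14 genes the level was 1379, 1237, 678 and 600 CPM in gated cells, against 1626, 1605, 1584 and 1676 CPM in all other cells. At 2000 UMIs per cell, mki67 was found in 10.4% of gated cells (exact interval 8.32% to 12.8%) and 11.96% of all other cells.

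Gated cells were next compared with the 356 agr2-low cells, of which there were 76, 94, 95 and 91 in libraries 1 to 4, in order to see what goes with agr2 among cells that share the other gate genes. The rule chose both groups by the other gate genes. At 2000 UMIs per cell gata2a, which the rule did not use, was found in 63.7% of gated cells (exact interval 60.1% to 67.1%) and 64.6% of agr2-low cells (59.2% to 69.7%). The pooled shares of ptprc and mki67, also outside the rule, stood further apart at this depth. A ptprc UMI was found in 60.2% of gated cells (56.6% to 63.7%) and 79.9% of agr2-low cells (75.2% to 84.1%). For mki67 the shares were 10.4% (8.32% to 12.8%) and 2.70% (1.24% to 5.07%). These shares are pooled over libraries, their intervals cover counting error only, and the mix of libraries differed between the groups. In the edgeR test over libraries no pan-leukocyte or cell division gene passed. The 8 spink2 copies summed to between 87950 and 103888 CPM in gated cells, and to between 70674 and 106348 CPM in agr2-low cells. Depth differed as well: a median gated cell had 7943 UMIs, and the median agr2-low cell 4505.5, and a minimum of 2 agr2 UMIs favours deeper cells. Of 6317 genes tested, 153 passed (2.42%), 103 of them higher (1.63%) and 50 lower (0.792%) in gated cells, and 787 passed with the library as a block, among them all 153. With sums scaled by their totals, 54.3% of calls were higher, against 67.3%.

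Gated and agr2-low cells were split by their agr2 counts, so genes that go along with agr2 had to be higher in gated cells. The calls describe this split, and an adjusted p says only that a difference repeated over the libraries. Of 51 ER genes tested, 33 were higher in gated cells and none lower, with a median log2 fold change of 1.34, against -0.04 over all genes tested. The Hsp70 chaperone of the ER, hspa5, stood at 3106, 2881, 1273 and 1263 CPM in gated cells, against 292, 275, 317 and 319 CPM in agr2-low cells (log2 fold change 2.87, SE 0.32, adjusted p = 0.0038). The Hsp90 chaperone hsp90b1 stood at 2098, 2001, 834 and 983 CPM in gated cells, against 305, 243, 235 and 223 CPM in agr2-low cells (log2 fold change 2.61, SE 0.31, adjusted p = 0.0043). For both chaperones the groups did not overlap, agr2-low cells were nearly level over libraries, and gated cells of libraries 1 and 2 stood above those of libraries 3 and 4. The lectin chaperones calr3b (log2 fold change 3.07) and calr (2.66), the disulfide isomerases pdia4 and pdia6 (3.02), the exchange factor hyou1 (2.88), the co-chaperones sdf2l1 (3.26) and dnajb11 (2.61), and the stress-induced proteins manf (3.63) and creld2 (3.85) passed as well. Of these, manf stood at 309, 321, 66.9 and 69.2 CPM in gated cells, against 24.4, 17.5, 10.4 and 14.5 CPM in agr2-low cells. The transcription factor xbp1, a driver of the unfolded protein response, averaged 1612 CPM in gated cells and 1844 CPM in agr2-low cells and did not pass.

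These calls depended on the libraries. Without library 2 no gene passed (784 at an unadjusted p under 0.05), and without library 1, 7 genes passed, of which 6 were ER genes. In libraries 1 and 2 alone 44 of 52 ER genes were higher and 1 lower, and in libraries 3 and 4 alone 21 of 52 were higher and none lower. Over all genes tested, 1113 of 8569 and 40 of 6592 were higher in these pairs. With DESeq2, 540 genes passed, and after thinning 26 of 45 ER genes were higher, against 66 of 1871 over all genes tested.

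Of 29 tested genes of transport from ER to Golgi, 6 were higher in gated cells, and 16 were with the block, where 2 were lower. Without library 1 or 2 none passed. The list summed to 5381, 5372, 4131 and 4142 CPM in gated cells, against 3649, 4111, 4308 and 4983 CPM in agr2-low cells, so it was higher in gated cells of libraries 1 and 2 only. The genes that passed included kdelr3 (log2 fold change 2.60, SE 0.36, adjusted p = 0.0083) and kdelr2b (2.21, SE 0.41, adjusted p = 0.025), both receptors for the retrieval of chaperones. Outside the lists, si:ch1073-67j19.1, which RefSeq names teni.1, stood at 10427, 13684, 4976 and 3494 CPM in gated cells, against 1645, 1091, 3030 and 2629 CPM in agr2-low cells (log2 fold change 1.99, SE 0.45, adjusted p = 0.048). The spink2 copy zgc:158852 (spink2.1 in RefSeq) stood at 2095, 2333, 654 and 684 CPM in gated cells, against 314, 348, 173 and 237 CPM in agr2-low cells (log2 fold change 2.48, SE 0.44, adjusted p = 0.023). Genes lower in gated cells included 4 of the 8 tested dissociation genes, junba (log2 fold change -1.75), btg2 (-1.41), socs3a (-1.19) and dusp1 (-1.18). None of these 4 passed without library 1 or 2. The sphingosine 1-phosphate receptor s1pr4 (log2 fold change -1.56) and the metalloproteinase inhibitor timp2b (-2.16) were also lower. The carbonic anhydrase ca6 stood at 396, 337, 458 and 343 CPM in gated cells, against 993, 1015, 745 and 823 CPM in agr2-low cells (log2 fold change -1.14, SE 0.20, adjusted p = 0.023). None of the members of the complement, pan-leukocyte, granulocyte, neutrophil, epithelial, O-glycan, ribosome or cell division lists passed in edgeR. With the block 4 complement genes were lower and 1 higher, 5 granulocyte genes lower and 1 higher, 7 neutrophil genes lower, 3 pan-leukocyte genes lower, 5 ribosome genes higher and 4 cell division genes higher in gated cells. Of all 6317 genes tested, 428 were higher and 359 lower with the block. The cell division list summed to 1379, 1237, 678 and 600 CPM in gated cells, against 305, 383, 840 and 411 CPM in agr2-low cells, and all 14 of its genes were higher in libraries 1 and 2 alone. In that pair 1113 of all 8569 genes tested were higher. The neutrophil list summed to 4419, 1688, 3799 and 2095 CPM in gated cells, against 10549, 3179, 4339 and 9882 CPM in agr2-low cells.

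**Figure D4:**
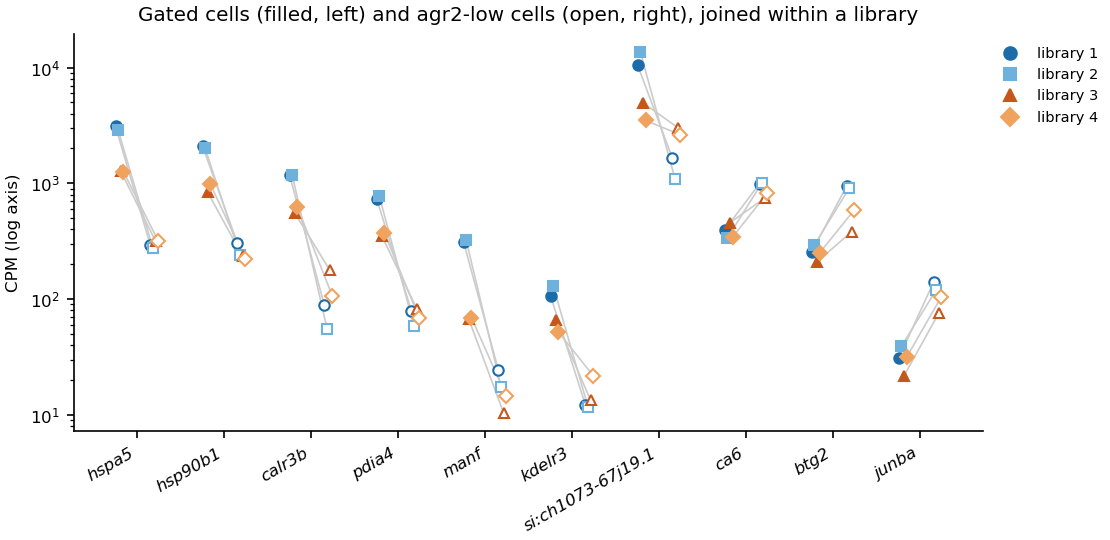
CPM (log axis) of 10 genes in gated cells (filled, left) and agr2-low cells (open, right), with the values of a library joined by a line. The ER genes hspa5 to kdelr3 are higher in gated cells of every library, by more in libraries 1 and 2, and ca6, btg2 and junba are lower.

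Within the gated cells the agr2 level ranged widely. The median cell held 1710, 1516, 520 and 551 agr2 CPM in libraries 1 to 4, and the highest cell of each held 16893, 14189, 6911 and 7127 agr2 CPM. When the gated cells of each library were split by their agr2 level into 3 equal bins, the ER list without agr2 summed to 42421, 40936, 24201 and 25050 CPM in the highest bin, against 13802, 14475, 10799 and 10190 CPM in the lowest. For hspa5 the level was 4941, 4428, 2068 and 2138 CPM in the highest bin, against 799, 540, 313 and 282 CPM in the lowest. In every library the ER level thus stood higher in the bin with the most agr2. Markers of other cells moved with this split too. The neutrophil list summed to 1317, 1223, 497 and 1459 CPM in the highest bin, against 8386, 1524, 10562 and 4025 CPM in the lowest. The macrophage list summed to 278, 258, 309 and 436 CPM in the highest bin, against 1529, 1564, 955 and 1754 CPM in the lowest, and the epithelial list to 34.1, 37.7, 20.3 and 24.6 CPM, against 271, 690, 122 and 112 CPM. All 3 lists were lower in the highest bin of every library, and their part in the other levels was not tested. The levels of gata2a (439, 388, 652 and 536 CPM in the highest bin, against 449, 398, 602 and 475 CPM in the lowest) and viml (738, 688, 824 and 643 CPM against 783, 756, 693 and 572 CPM) were nearly level. For ca6 the level was 131, 99.2, 246 and 186 CPM in the highest bin, against 728, 685, 708 and 435 CPM in the lowest. Cells of the highest bin also had more UMIs, with medians of 12343.5, 12637, 15650 and 16427, against 6729, 5939, 9370 and 9277 in the lowest, and the part of this in the levels was not tested. The bins were made from measured values, so they are described without a test.

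A separate range of cells was seen at the top of the agr2 scale. At 6000 agr2 CPM or more lay 76 gated cells (10.0%), of which 34, 40, 1 and 1 were in libraries 1 to 4. They had a median of 38189.5 UMIs, against 7522 for the 683 gated cells below, and held 26.8% of all UMIs and 67.4% of all agr2 UMIs of gated cells. The threshold was read from the plot of cells, so these values are given with no test. The ER list summed to 50420 CPM over these cells, against 18590 CPM over the other gated cells, and hspa5 to 5905 CPM, against 1302 CPM. The genes teni.1 (23839 CPM against 5062 CPM) and timp4.2 (10770 CPM against 2692 CPM) were higher in them, as was the cell division list (2198 CPM against 737 CPM). The spink2 copies summed to 66589 CPM in them and 110939 CPM in the other gated cells, muc2.1 stood at 38.4 CPM in them and 90.0 CPM in the others, and ca6 at 9.3 CPM in them and 506 CPM in the others. The dissociation list summed to 376 CPM in them and 1729 CPM in the others. Outside the gate 4 cells reached this agr2 level. In the gated cells below it agr2 stood at 2012, 1801, 1178 and 1166 CPM in libraries 1 to 4, a difference that the threshold on agr2 itself sets in part. Whether they are single cells was not tested.

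Without these 76 cells, 2746 genes differed from all other cells and 50 of 53 ER genes were higher. Against agr2-low cells 52 genes then passed, all of them among the 153, and 23 of 51 ER genes were higher. The dissociation genes junba, btg2, socs3a and dusp1, together with ca6, no longer passed.

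**Figure D5:**
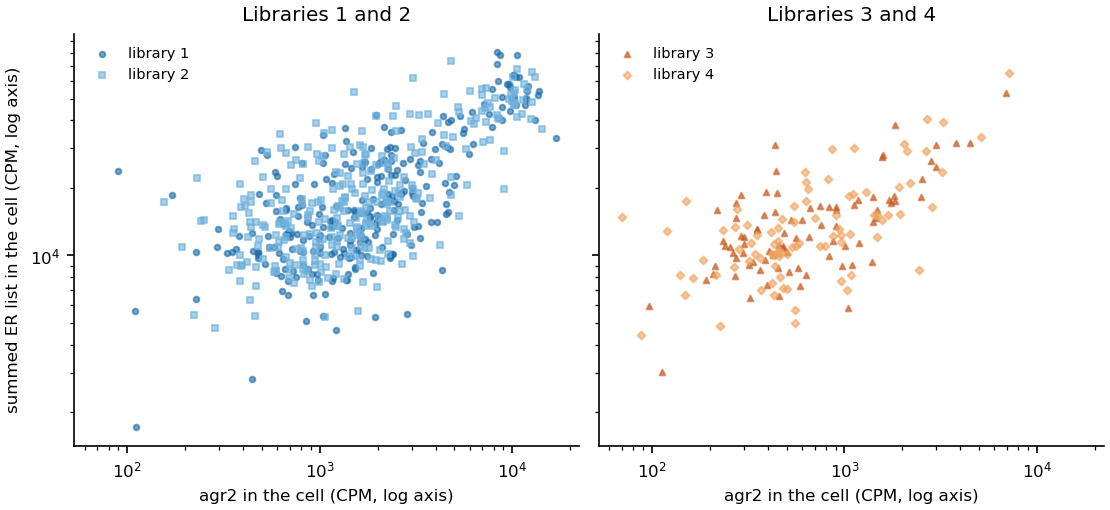
Summed CPM of the ER list (vertical, log axis) against agr2 CPM (horizontal, log axis) in each gated cell, for libraries 1 and 2 (left) and 3 and 4 (right). The 76 cells at 6000 agr2 CPM or more form a group at the upper right of libraries 1 and 2, and libraries 3 and 4 have 1 such cell each.

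Neutrophil-like cells, 9577 in number, were the most abundant granulocytes and served as a comparison within the white blood cells. They were chosen by 6 neutrophil genes and by passing no other class, so those genes, the markers of the other classes and genes that go along with either had to differ. They were part of the fit and are counted among the calls, but their differences are not given as results. Of 14153 genes tested, 2518 passed (17.8%), 1073 higher (7.58%) and 1445 lower (10.2%) in gated cells. With the block 4092 passed, in libraries 1 and 2 alone 6030, and without library 1 or 2, 1480 and 1338. With sums scaled by their totals, which moved the median log2 fold change of all genes by -0.38, 19.7% of calls were higher, against 42.6%.

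Genes that go along with agr2 or the other gate genes had to be higher in gated cells here too. The ER list stood higher with more agr2 in the bins above, so its count describes the gate. Of the secretory genes, 48 of 53 ER genes and 23 of 32 traffic genes were higher in gated cells, and 1 traffic gene was lower. Without library 1 the traffic count was 14. The ER list summed to 7139 to 8466 CPM in neutrophil-like cells. The factor creb3l1 averaged 75.7 CPM in gated cells and 0.72 CPM in neutrophil-like cells (log2 fold change 7.09, SE 0.45). Of 15 complement genes 7 rose and 1 fell, and properdin, cfp, which stabilises the alternative pathway, stood at 549, 557, 445 and 462 CPM in gated cells, against 45.8, 35.4, 14.5 and 13.9 CPM in neutrophil-like cells (log2 fold change 4.56, SE 0.46, adjusted p = 1.5e-04). The level of the transcription factor gata2a in neutrophil-like cells was 7.4, 6.0, 1.6 and 1.3 CPM (log2 fold change 7.32, SE 0.69, adjusted p = 1.0e-04). That of nfe2 was 18.7, 13.3, 3.4 and 3.0 CPM. It is a description, since nfe2 may go along with the erythroid and thrombocyte markers that neutrophil-like cells had to lack. The granulocyte factor cebp1 may go along with the genes that chose the neutrophil-like cells, so its levels are a description. They were 6.4, 2.7, 6.9 and 8.6 CPM in gated cells, against 291, 374, 243 and 272 CPM in neutrophil-like cells. Of 18 pan-leukocyte genes 1 rose and 4 fell, and 12 fell when sums were scaled by their totals, as did 2763 of all 14153 genes tested. The integrin itgb2 averaged 376 CPM in gated cells and 910 CPM in neutrophil-like cells, and the actin bundler lcp1 averaged 44.9 CPM in gated cells and 168 CPM in neutrophil-like cells. Both may go along with the neutrophil genes, so these levels are a description too. Of the dissociation genes 2 rose, including nr4a1 (213 CPM against 49.2 CPM), and 4 fell, including atf3 (19.0 CPM against 216 CPM). Without library 2 these counts were 1 and 2. Of 8 tested genes in the anion and bicarbonate transport list, 3 rose. Among them were the potassium channel kcnk5b (49.7 CPM against 3.8 CPM) and the bicarbonate carrier slc4a4b (64.4 CPM against 22.1 CPM).

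Another 354 cells had 2 or more agr2 UMIs without meeting the gate, 134, 94, 73 and 53 in libraries 1 to 4, and of these 190 passed the distal tubule-like class and 111 the neutrophil-like class. They had a median of 11093 UMIs, where gated cells had 7943. Genes that go along with the other 4 gate genes had to differ here as well. Of 9344 genes tested, 3297 passed (35.3%), 1187 higher (12.7%) and 2110 lower (22.6%) in gated cells. With sums scaled by their totals, which moved the median log2 fold change of all genes by -0.49, 14.4% of calls were higher, against 36.0%. After thinning 377 of 828 genes passed, and among cells that passed no class 1263 of 4607 did.

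Some mucus-associated and epithelial genes that were low in gated cells were higher in these agr2-positive cells outside the gate. The mucin muc5e stood at 0.96, 2.7, 7.8 and 0 CPM in gated cells, against 85.3, 168, 304 and 314 CPM in agr2-positive cells outside the gate (log2 fold change -6.02, SE 0.87, adjusted p = 4.6e-04). The factor foxa3 averaged 0.42 CPM in gated cells and 70.6 CPM in those cells (log2 fold change -6.34, SE 0.62), and the epithelial factor elf3 averaged 2.3 CPM in gated cells and 607 CPM in those cells (-7.35, SE 0.69). All 15 tested epithelial genes and all 8 distal tubule genes were lower in gated cells, among them the cadherin cdh17 (12.1 CPM against 1851 CPM) and the segment factor gata3 (0.35 CPM against 158 CPM). Conversely 49 of 52 ER genes, 22 of 28 traffic genes and 13 of 18 pan-leukocyte genes were higher in gated cells and none was lower. With sums scaled by their totals these counts were 36, 12 and 5, after thinning 10 of 36, 3 of 11 and 9 of 15, and among cells that passed no class 34 of 51, 13 of 27 and 14 of 17. Over all genes tested, 487 of 9344, 141 of 828 and 648 of 4607 were higher in these settings. Without library 3 the pan-leukocyte count was 7. The exocytosis genes unc13d (371 CPM against 35.4 CPM) and stx11a (347 CPM against 51.3 CPM), which act in granule release by mammalian cytotoxic cells, were among the traffic genes. Of 10 complement genes 6 were higher, and cfh, a soluble regulator of C3, stood at 1618, 1476, 2423 and 2242 CPM in gated cells, against 312, 166, 98.0 and 79.0 CPM in those cells (log2 fold change 4.08, SE 0.47, adjusted p = 1.6e-04). Dissociation genes were lower in gated cells for 12 of 14 members, among them jun (10.3 CPM against 729 CPM). The carbonic anhydrases went apart, with ca2 lower in gated cells (18.2 CPM against 1059 CPM) and ca6 higher (384 CPM against 69.9 CPM).

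Gated cells with and without a muc2.1 UMI were compared after thinning each to 2000 UMIs. None of 911 genes passed an adjusted p of 0.05 (0%), with 41 at an unadjusted p under 0.05 in edgeR, and DESeq2 also called none, with 35 unadjusted. At this depth 15.9% of gated cells had a muc2.1 UMI, so cells without one may well express the gene. Without a filter on low counts 2 genes passed, and in libraries 1 and 2 alone 3 did.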

How the data were processed

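Polyadenylated RNA of single kidney cells was captured on the BD Rhapsody system in 4 libraries, as 3′ tags. The counts are whole UMI numbers per gene and cell, which the authors made with UMI-tools at default settings and deposited without normalization. The submitters' processing notes name GRCz11 and Seurat 4.2, and the aligner is not given in the sources used here. Tables listed 28357 gene names, 23812 of them in all 4 libraries, and a name missing from a library was taken as 0. RefSeq names (GRCz12tu) were matched for 23960 genes. The genes that chose the cells and all gene lists were chosen with earlier results of these data known.

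UMIs were summed per library and cell group and compared in edgeR 4.0.16 (R 4.3.3) by the quasi-likelihood test with TMM scaling, filterByExpr and Benjamini-Hochberg adjustment over all genes tested, at an adjusted p of 0.05. The gate genes were part of the fits and of the adjustment, and were left out of the counts of genes tested and called. Both sums of a comparison come from the same libraries, and their deviations from the group means correlated in every library (0.33 to 0.77), so a fit with the library as a block is given where it changed a count by over 1.5 times. P-values measure the spread between libraries, which may be technical. A class needed 3 markers, with at least 2 UMIs each for the neutrophil-like and macrophage-like classes and 1 for the others. Sums of under 3 cells were left out. No doublet caller was run, and gated cells passing another class were left out in an alternative instead, with the other groups cut as described above. Thinning drew 2000 UMIs per cell and left out shallower cells (10 of the 759 gated cells and 5399 of the 30249 other cells).

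Genes named were the gate genes, the members of a comparison with the largest folds among those called in the same direction in all 4 libraries at 100 CPM or more, and up to 4 members of a list with the largest folds. The spink2 and teni copies, list members named without a value, and genes at an unchanged level were named after their values were seen. Alternatives were DESeq2 1.42.0, its size factors, no low-count filter, the block, leaving out each library, each library pair, other gate thresholds, thinning, genes listed in all libraries, and cells passing no other class. Scaling by totals alone and leaving out gated cells at 6000 agr2 CPM or more were chosen after seeing the data. The script for the test was tested on simulated data. Further work used Python 3.11.15 with NumPy 2.4.6, pandas 2.3.3 and SciPy 1.17.1.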

Additional observations from a re-analysis of the deposited data

Results flagged for a closer look

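Of 101 genes or measures compared over the 4 libraries of gated cells, 6 had a library far from the other 3 by Dixon's test, where chance gives about 1 in 20. These were agr1 at 0.79 CPM in library 4, marco at 43.4 CPM in library 1, mmp13a at 178 CPM in library 4, slc12a3 at 13.4 CPM in library 1, timp2b at 37.7 CPM in library 4 and zfp36l1a at 22.0 CPM in library 1, where all but zfp36l1a lay above the other libraries.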

How the results depend on the processing

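The share of gated cells (2.26% on average) ranged from 1.83% to 2.84% over 4 other gates. Against all other cells, 3197 genes became 6239 with sums scaled by their totals, 4920 with the library as a replicate block, 7148 in libraries 1 and 2 alone, and 1405 to 2174 when 1 library was left out. Against agr2-low cells, 153 genes became 540 with DESeq2, 822 without a filter on low counts, 787 with the block, 1832 in libraries 1 and 2 alone, 50 in libraries 3 and 4 alone, 36 with a minimum of 1 agr2 UMI, 86 after thinning, 52 without gated cells at 6000 agr2 CPM or more, and 0 to 124 when 1 library was left out. Against neutrophil-like cells, 2518 genes became 4092 with the block, 6030 in libraries 1 and 2 alone and 1338 to 2025 when 1 library was left out. Against agr2-positive cells outside the gate, 3297 genes became 377 after thinning and 1263 among cells passing no other class, and 2531 to 3172 when 1 library was left out. Between gated cells with and without a muc2.1 UMI, 0 genes became 2 without a filter and 3 in libraries 1 and 2 alone, and stayed at 0 when any 1 library was left out. Thinning leaves fewer genes to test, and the cause of the other changes was not tested. The block counts for the last 2 comparisons were 4031 and 0. Of 2144 values of named genes under an alternative, 2009 kept their direction and call, 135 kept the direction and lost the call, and 0 turned round. Of the lost calls, 25 came from leaving out library 1 and 31 from leaving out library 2. Libraries 3 and 4 held 86 and 87 gated cells, and the part of this number and of depth in the calls was not tested.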
